A study of Ovis aries with 23 samples.

Results

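Odd-numbered samples (1, 3, and 5) were compared with even-numbered samples (2, 4, and 6) of sheep pars tuberalis (PT) collected after 7 or 28 days of long photoperiod (LP), with the LP day as a covariate. The number is the one that ends each sample's title, and it alone defines the groups. Each group has 6 samples, 3 per day, so 12 of the 23 RNA sequencing samples enter the comparison. What the numbers stand for, such as an order of collection or a clock time, is not given in the labels. The labels also do not say that each sample is a separate animal, so the p-values measure the spread between samples, which may in part be technical.

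In this experiment castrate (neutered in the labels) male Scottish blackface sheep lived on short photoperiod (SP), with 8 hr of light per 16 hr of darkness, before a switch to LP, with 16 hr of light per 8 hr of darkness. PT tissue was taken on SP (5 samples) and after 1, 7, or 28 days of LP (6 samples each). The odd and even groups therefore share sex, castration, breed, tissue, and photoperiod, and no transgene or drug is named for either. Every sample is a count of reads for each of 25197 Ensembl sheep genes.

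The PT is the part of the pituitary that reads the melatonin signal of night length. Melatonin acts there through its receptor MTNR1A, and a local circadian clock of transcriptional activators (CLOCK and ARNTL) and repressors (the PER and CRY proteins and the REV-ERB receptors) times the expression of genes such as EYA3. EYA3 is a transcriptional co-activator of TSHB, and the TSH that PT thyrotrophs release on LP acts on the neighbouring hypothalamus through TSHR. Clock transcripts in the PT vary with the time of day.

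Total counts ran from 2190640 to 4413929 in the odd samples (median 3484946) and from 2666363 to 3532006 in the even samples (median 3039990.5), and the ranges overlapped (two-sided exact permutation test with numbers exchanged within each day, p = 0.285, smallest possible p 0.005, adjusted p = 0.855 over 9 sample measures). Prolactin took 2.35% to 21.0% of counts in odd samples and 3.91% to 19.5% in even samples (same exact test, p = 0.96). The 7 tested markers of pars distalis endocrine cells, of 9 listed, summed to 46552 to 272730 CPM (counts scaled to library size) in odd and to 74632 to 252968 CPM in even samples. Thus the amount of pars distalis RNA varied widely but overlapped between the groups. CGA and TSHB, the subunits of thyrotropin, were present in all 12 samples. LP day 7 sample 3, an odd sample, stood apart in 9 interferon-induced genes, which summed to 5859 CPM against 130 to 233 CPM in the other 11 samples. Without it, 159 genes were called instead of 152.

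Of the 14890 genes that exceeded 1 CPM in 6 or more samples, 152 (1.02%) differed between odd and even samples at a false discovery rate (FDR) under 0.05 (quasi-likelihood test of edgeR, adjusted by the Benjamini-Hochberg method). Of these, 107 (0.719% of those tested) were higher in odd samples and 45 (0.302%) were higher in even samples. Log2 differences are given as odd minus even throughout. Their median was 0.77 among genes higher in odd and -1.13 among genes higher in even, and the median absolute difference was 0.82 against 0.13 over all tested genes. A difference of 2-fold or more was seen for 57 called genes (29 higher in odd, 28 higher in even) and of 4-fold or more for 14 (8 and 6). An unadjusted p under 0.05 was found for 1503 genes (10.1%).

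The samples of the groups did not overlap on either day for 123 of the 152 genes, 87 higher in odd and 36 higher in even, whereas 321 of all tested genes (2.16%) were separated in this way, 1.30% with odd higher and 0.860% with even higher. For 106 genes the 6 odd and 6 even samples did not overlap even with the days pooled, against 198 (1.33%) of all tested genes, 0.853% with odd higher. These counts use the same samples as the test and describe how clean the calls are. In a principal component analysis of the 14890 genes, component 1 held 16.1% of the variance and component 2 held 12.8%. On component 2, the odd samples scored from 1.36 to 33.6 and the even samples from -23.3 to -6.19, so the groups did not overlap there.

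**Figure D1:**
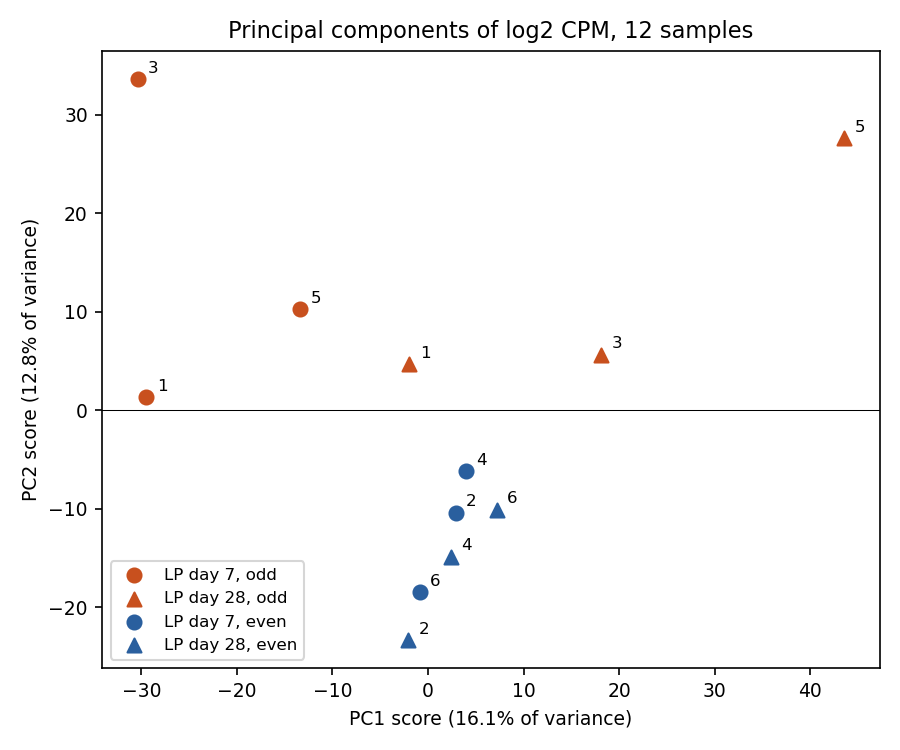
Scores of the 12 samples on principal components 1 and 2 of log2 CPM over 14890 genes, coloured by odd or even sample number and shaped by LP day, with sample numbers beside the points. All 6 odd samples lie above 0 on component 2 and all 6 even samples below 0, whereas component 1 does not divide the groups.

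Symbols could be paired with 67 of the 152 genes (48 higher in odd, 19 higher in even). The pairing came from tables of genes that the study selected partly on these samples, so named genes are not a random draw of the called ones. Levels below are CPM normalized by the TMM method over all 23 samples. In whole tissue, fewer cells of a type and less RNA per cell cannot be told apart.

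The clock genes differed gene by gene. CRY1, a core repressor of the clock, had the lowest FDR of all genes. CRY1 stood at 23.8, 23.2, and 23.2 CPM in LP day 7 samples 1, 3, and 5 and at 302, 298, and 229 CPM in samples 2, 4, and 6. At LP day 28 it stood at 29.3, 28.7, and 16.9 CPM in the odd and at 242, 138, and 156 CPM in the even samples. Every odd sample was thus below every even sample by several fold, and the odd samples lay close together. The log2 difference was -3.18 (standard error 0.18, FDR 2.87e-08, edgeR), or 9.09-fold higher in even samples.

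Of the 5 tested clock repressors, 3 were called, and CRY1 was alone among them in being higher in even samples. CIART, a repressor of CLOCK-driven transcription, was at 58.6, 37.0, and 58.6 CPM in the odd and at 10.4, 11.8, and 13.7 CPM in the even samples of LP day 7, and at 40.9, 17.6, and 74.6 CPM against 7.53, 16.5, and 10.5 CPM at LP day 28. Its groups did not overlap on either day, although LP day 28 samples 3 (odd) and 4 (even) came within about 1 CPM of each other. The log2 difference was 2.01 (standard error 0.28, FDR 8.11e-04). BHLHE41, a repressor of the DEC family, differed by 1.25 (standard error 0.24, FDR 0.0124). It separated the groups at LP day 7, with 112 to 191 CPM in odd and 32.6 to 40.1 CPM in even samples, but not at LP day 28, where LP day 28 sample 3 at 44.9 CPM lay among the even samples. CRY2 and PER3, the remaining repressors, had log2 differences of 0.35 (95% interval 0.10 to 0.61, FDR 0.211) and 0.51 (0.21 to 0.81, FDR 0.0892) and were not called, although each was called in 1 of 27 alternative fits.

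NR1D1, which encodes the repressor REV-ERB alpha, was higher in odd samples. At LP day 7 it stood at 458, 257, and 298 CPM in the odd and at 67.7, 84.8, and 77.9 CPM in the even samples. The values were closer at LP day 28, at 128, 107, and 277 CPM against 73.6, 102, and 86.1 CPM, where sample 5 was the highest. Its log2 difference was 1.55 (standard error 0.25, FDR 0.00283) over both days, 2.13 (FDR 0.00126) at LP day 7, and 0.95 (FDR 0.333) at LP day 28. The related receptor gene NR1D2 was not called over both days (0.39, FDR 0.524). It was called at LP day 7 (0.99, FDR 0.0175) but not at LP day 28 (-0.23, FDR 0.77), and the difference between the days did not pass the test (FDR 0.374).

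The PAR bZIP factors DBP and TEF, clock outputs that drive rhythmic target genes, were both higher in odd samples. DBP was at 149, 174, and 265 CPM in the odd and at 105, 94.8, and 108 CPM in the even samples of LP day 7. At LP day 28 the values were 224, 165, and 289 CPM against 107, 133, and 133 CPM. All 6 odd samples were above all 6 even samples, with a log2 difference of 0.90 (standard error 0.14, FDR 0.00278). TEF ranged from 145 to 202 CPM in odd (median 170) and from 102 to 139 CPM in even samples (median 114), with a log2 difference of 0.58 (standard error 0.10, FDR 0.00570). TEF thus separated the groups with a smaller difference than DBP.

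The activators of the clock showed no called difference. ARNTL was at 27.2 to 33.6 CPM in odd and 21.2 to 42.7 CPM in even samples, a log2 difference of 0.10 with a 95% interval from -0.22 to 0.42. CLOCK differed by 0.13 (-0.41 to 0.67) and ARNTL2 by 0.30 (-0.66 to 1.26). The intervals do not show that a difference is absent, and the one of ARNTL2, a gene of few reads, is the widest. Those of CLOCK and ARNTL2 reach above the 0.58 of TEF, which was called. FBXL21, a ubiquitin ligase subunit that acts on CRY proteins, differed by 0.45 (0.11 to 0.80) and was not called. Of 14 tested genes in the 5 lists of clock components, 6 were called, where 1.02% of all tested genes and 67 of the 1079 tested genes with a symbol were. As only genes with a symbol could be members, and the study selected these partly on the same samples, the latter share is the closer background. PER1, PER2, BHLHE40, and the ROR genes were not analysed here, because no symbol could be paired with their identifiers. KLF10, the single tested member of a list of clock-controlled genes, differed by 0.06 (FDR 0.887).

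**Figure D2:**
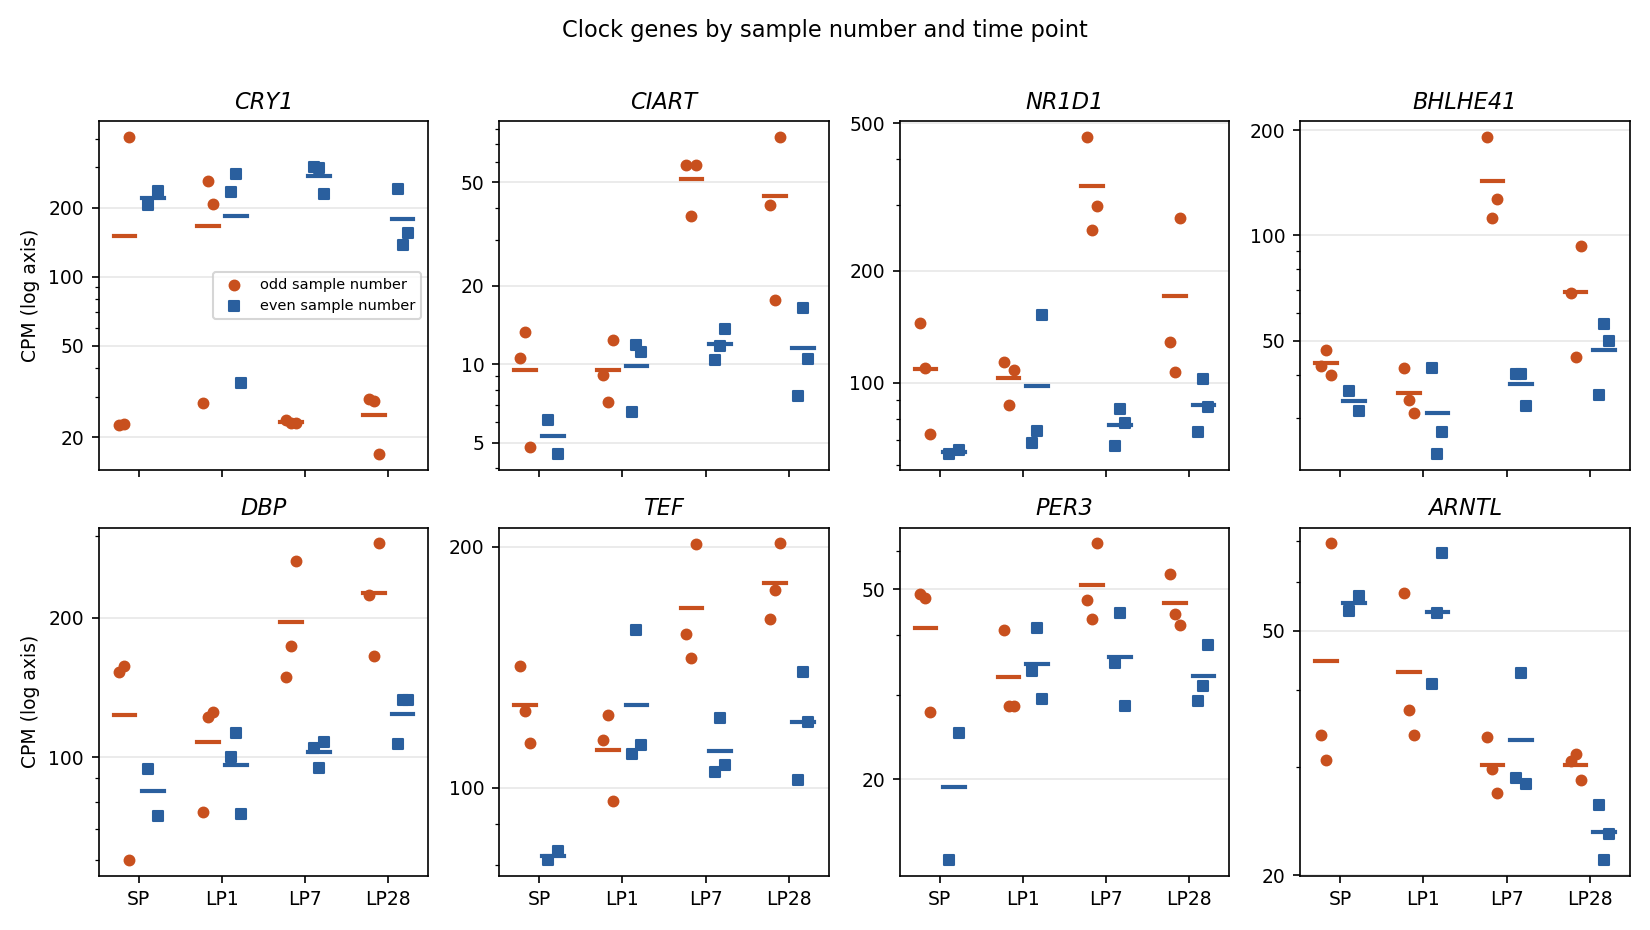
CPM (log axis) of 8 clock genes in all 23 samples by time point (SP, LP day 1, LP day 7, and LP day 28), with odd sample numbers as circles, even numbers as squares, and bars at group means. CRY1 is low in all 6 odd samples of LP days 7 and 28 and high in all 6 even samples. CIART, NR1D1, DBP, and TEF are higher in the odd samples there, and ARNTL overlaps at LP day 7 but not at LP day 28.

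The genes that carry the melatonin and TSH signals of the PT differed in both directions. Of 11 tested members of a photoperiod relay list, 6 were called, 4 higher in odd and 2 higher in even samples, against 1.02% of all tested genes and 67 of the 1079 with a symbol. The median log2 difference of the list was 0.00, with the called members spread over both directions. EYA3 had 969, 381, and 332 CPM in the odd samples of LP day 7 and 30.9, 39.2, and 41.2 CPM in the even samples. On day 28 it had 407, 123, and 471 CPM in odd and 37.6, 58.5, and 46.8 CPM in even samples. The odd samples varied among themselves by several fold, yet the lowest, LP day 28 sample 3, was still above every even sample. The log2 difference was 3.36 (standard error 0.34, FDR 5.69e-05), or 10.3-fold.

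MTNR1A had 37.1, 24.1, and 41.5 CPM in odd and 1.48, 0.537, and 2.06 CPM in even samples of LP day 7, and 27.5, 14.5, and 18.9 CPM against 4.79, 1.35, and 7.02 CPM at LP day 28. In counts, the even samples held 2 to 18 reads of this gene and the odd samples 39 to 163. The melatonin receptor transcript was therefore near the limit of 3 counts in some even samples, and its log2 difference of 3.30 (standard error 0.40, FDR 3.04e-04) rests on few reads there. PDE10A, a phosphodiesterase that breaks down cyclic nucleotides, had 34.4 to 62.0 CPM in odd (median 48.1) and 13.4 to 19.9 CPM in even samples (median 17.6). Its log2 difference was 1.48 (standard error 0.18, FDR 3.02e-04). KAL1, which encodes the matrix protein anosmin-1 of axon guidance, had 33.4 to 69.2 CPM in odd and 7.72 to 13.3 CPM in even samples, without overlap, and its difference was 2.10 (standard error 0.20, FDR 2.84e-05).

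TSHR, the receptor for thyrotropin, went the other way. It stood at 20.9, 11.7, and 23.4 CPM in odd and at 115, 101, and 89.9 CPM in even samples of LP day 7. On day 28 the odd samples had 16.6, 24.2, and 10.7 CPM and the even samples 67.1, 46.1, and 87.3 CPM. The groups did not overlap, and the log2 difference was -2.19 (standard error 0.20, FDR 2.19e-05). GADD45G, a growth arrest and DNA damage response gene, was also higher in even samples (-2.09, standard error 0.38, FDR 0.00712). Its level was low, at 1 to 9 counts in the odd and 5 to 51 counts in the even samples, and at LP day 28 the odd samples had 0.284 to 1.62 CPM and the even samples 1.68 to 2.74 CPM.

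The thyrotropin subunits and CHGA, a granin of secretory granules that marks SP in the PT, did not pass the test over both days. CGA differed by -0.03 (95% interval -0.29 to 0.22), with 5200 to 10401 CPM in odd and 6482 to 9147 CPM in even samples. CHGA had 889 to 1626 CPM in odd and 793 to 2069 CPM in even samples, and the interval of its log2 difference ran from -0.32 to 0.33. TSHB differed by -0.52 (-1.01 to -0.02, FDR 0.407) over both days. At LP day 7 alone, TSHB was lower in the odd samples, at 452, 380, and 289 CPM against 684, 1151, and 666 CPM in the even samples (log2 difference -1.16, FDR 0.0175). At LP day 28 the values were 1580, 1151, and 1070 CPM in odd and 1326, 921, and 1257 CPM in even samples, which overlapped (0.12, FDR 0.93). The change between the days did not pass the test (FDR 0.390). DIO2, the deiodinase that activates thyroid hormone, and SHH, a morphogen, differed by 0.45 (FDR 0.626) and -0.22 (FDR 0.738). These 5 genes were named after their values had been seen.

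**Figure D3:**
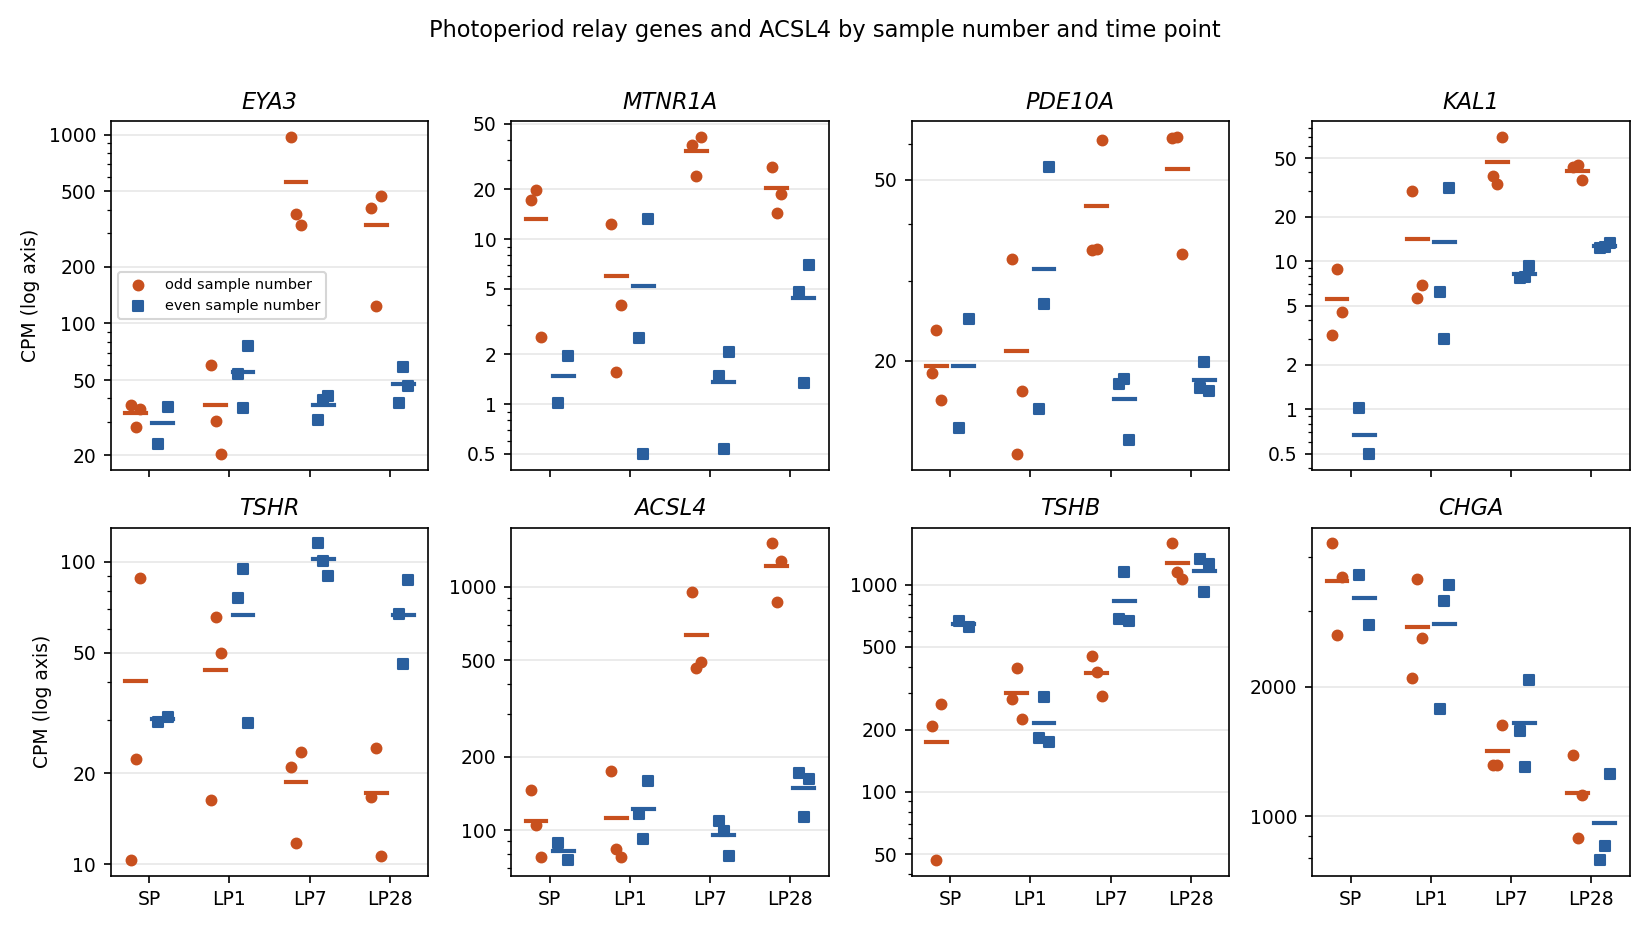
CPM (log axis) of 7 photoperiod relay genes and ACSL4 in all 23 samples by time point, with odd sample numbers as circles, even numbers as squares, bars at group means, and values under 0.5 CPM drawn at 0.5. EYA3, MTNR1A, PDE10A, KAL1, and ACSL4 are higher in the odd samples of LP days 7 and 28, and TSHR is higher in the even samples. CHGA overlaps on each of these days, and TSHB overlaps at LP day 28 but not at LP day 7.

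Outside the clock and relay genes, ACSL4, ELOVL6, ATP8B1, SLC8A3, and TNFRSF12A were among the named genes with the largest differences in favour of odd samples. ACSL4, which joins arachidonic acid to coenzyme A, had 952, 462, and 489 CPM in odd and 109, 99.3, and 78.2 CPM in even samples at LP day 7. At LP day 28 it reached 1509, 867, and 1280 CPM in odd and 171, 113, and 163 CPM in even samples. Its log2 difference of 2.88 (standard error 0.19, FDR 1.54e-07) was the one with the lowest FDR after that of CRY1. ELOVL6, a fatty acid elongase, had 18.0 to 37.9 CPM in odd and 3.08 to 13.6 CPM in even samples (1.99, FDR 8.11e-04). ATP8B1, a phospholipid flippase, had 12.5 to 33.6 CPM against 3.43 to 9.92 CPM (1.99, FDR 0.00127). SLC8A3, a sodium-calcium exchanger, had 7.96 to 30.0 CPM against 1.19 to 5.07 CPM (2.50, FDR 6.37e-04). TNFRSF12A, the receptor of the cytokine TWEAK, had 10.5 to 20.3 CPM against 2.95 to 5.83 CPM (2.02, FDR 2.62e-04).

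Among the named genes with the largest differences in favour of even samples were DRD1, NETO2, and TRPC7. DRD1, a dopamine receptor, had 3.77, 3.61, and 1.53 CPM in odd and 36.2, 36.5, and 38.4 CPM in even samples at LP day 7. On day 28 it had 8.55, 11.4, and 11.6 CPM against 21.9, 22.2, and 20.3 CPM. The separation was thus wider at LP day 7 (-3.65, FDR 1.20e-06) than at LP day 28 (-1.05, FDR 0.117), and the change of -2.61 between the days passed the test (standard error 0.36, FDR 0.0228). No gene passed that test when any of LP day 7 samples 2, 4, or 6 or LP day 28 samples 2, 3, 4, 5, or 6 was left out. NETO2, an accessory subunit of kainate receptors, had 1.99 to 6.09 CPM in odd and 8.07 to 20.1 CPM in even samples (-1.76, FDR 0.00126). TRPC7, a cation channel, had a median of 5.63 CPM against 16.1 CPM (-1.46, FDR 0.00136). KLHL41, a kelch protein best known from muscle, had 22.3 to 46.1 CPM against 65.3 to 104 CPM (-1.36, FDR 2.84e-04). ZNF438, a zinc finger gene, and NRIP3, a nuclear receptor interacting protein gene, differed by -1.34 (FDR 0.00264) and -1.33 (FDR 0.00570). PPP1R3A, a subunit that brings a phosphatase to glycogen, had 0 counts in all 3 odd samples of LP day 7 and 3, 3, and 0 counts in those of LP day 28, against 9 to 31 counts in the 6 even samples. It passed the test (FDR 8.11e-04), but with the odd samples at or under 3 counts no fold change is given.

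Several further called genes, named after their values had been seen, were higher in odd samples, from 1.62-fold for SYT5 to 2.23-fold for NAB2. VGF, a granin-like neuropeptide precursor, had 158 to 399 CPM in odd and 94.3 to 194 CPM in even samples (1.12, FDR 0.00275). PCSK1, the convertase that cleaves prohormones, differed by 1.02 (FDR 0.00712). SYT5, a calcium sensor of vesicle release, differed by 0.70 (FDR 8.53e-04), with 187 to 224 CPM in odd and 110 to 155 CPM in even samples. The transcriptional co-repressor gene NAB2 (1.16, FDR 5.63e-04), the ETS factor gene ETV5 (0.97, FDR 7.26e-04), the kinase gene SIK2 (0.995, FDR 0.00892), and the tight junction gene CLDN7 (0.86, FDR 0.00712) were also higher in odd samples.

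The immediate early and cAMP response list had 1 called gene of 6 tested, where 1.02% of all tested genes and 67 of the 1079 with a symbol were called. It was FOSL2, a partner of JUN in the AP-1 factor, which was higher in even samples (-1.13, FDR 0.0106). It had 9.32 to 11.2 CPM in odd and 26.6 to 35.9 CPM in even samples at LP day 7, but the groups overlapped at LP day 28. NR4A2, NR4A1, and EGR1 of the same list differed by -0.24, -0.30, and 0.17 and were not called. No gene was called among the tested 7 of 16 listed extracellular matrix genes (POSTN had the lowest FDR, 0.331). The same held for the tested 3 of 10 cell division genes (MKI67, 0.767). PDK4 was the only tested gene of 12 listed for the glucocorticoid response and was not called (0.875). The 9 interferon-induced genes had a median log2 difference of 2.24 and no call (lowest FDR 0.181, IRF7). LP day 7 sample 3 carried their summed level, as for RSAD2 with 104 CPM in that sample and a median of 2.02 CPM over the 6 odd samples. IRF7 was also highest there, at 175 CPM. In the other odd samples it ranged from 15.5 to 26.5 CPM and in the even samples from 9.93 to 17.2 CPM. IRF7, MX2, and RSAD2 were each called in 1 alternative fit.

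Among all tested genes 1.02% were called, and 67 of the 1079 with a symbol. Markers of other cells that the dissection could hold gave no call in the same fit. This held for 7 pars distalis genes (median log2 difference -0.05, lowest FDR 0.590 for LHB), 4 folliculostellate genes (0.11, 0.533 for VIM), 5 fibroblast genes (0.02, lowest FDR 0.832), 2 neuronal genes (-0.18, 0.0595 for NEFM), and the leukocyte gene PTPRC (-0.43, 0.747). The neuronal markers NEFM and STMN2, 2 of 11 listed, summed to 354 to 523 CPM in odd and 457 to 635 CPM in even samples (two-sided exact permutation test, p = 0.055, adjusted p = 0.495 over 9 measures), and NEFM itself, named after its values had been seen, had 275 to 387 CPM in odd and 370 to 470 CPM in even samples. NEFM was called, higher in even samples, in 7 of 27 alternative fits (lowest FDR 0.00946, DESeq2), and over all 27 its log2 difference ran from -0.55 to -0.30, so the absence of a call depends on the setting. Its part in the odd-even differences was not tested. Heat shock, endoplasmic reticulum chaperone, endothelial, and red blood cell lists could not be evaluated, as none of their genes was paired with a symbol. Of the other cell lists only part was tested, such as 1 of 8 leukocyte and 4 of 6 folliculostellate genes. The lack of a call there does not show that cell content was alike.

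Of the 1130 tested genes that the study placed in functional categories, 66 (5.84%) were called, 47 higher in odd and 19 higher in even samples. This compares with 1.02% of all tested genes and with 67 of the 1079 tested genes with a symbol. As the study chose the genes in its categories partly on these samples, their share is not independent of the data. The genes with a symbol are the closer background. Cell communication held 34 of the called genes (25 higher in odd, 9 higher in even) out of 474 tested, metabolism 13 of 132 (9 and 4), and development 12 of 222 (10 and 2). The category of endoplasmic reticulum, Golgi, and transport had 6 of 157 (6 and 0, or 3.82%). Protein modification had 3 called of 25 tested (3 and 0), homeostasis 6 of 97 (5 and 1), and nervous system 2 of 41 (1 and 1). Epigenetics had 1 of 22 (1 and 0), organization 3 of 183 (3 and 0), and other RNAs 0 of 25. No difference between categories was tested.

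Fitted within each day, 72 genes (0.484%) were called at LP day 7, 52 higher in odd (0.349%) and 20 higher in even samples (0.134%), and 25 (0.168%) at LP day 28, 18 (0.121%) and 7 (0.0470%). The share with an unadjusted p under 0.05 was 9.36% at LP day 7 and 8.45% at LP day 28. Of the 152 genes called over both days, 61 were among the calls of LP day 7 and all 25 calls of LP day 28 were included. All 152 had the same sign on both days, which the test over both days favours. Only DRD1 of 14890 genes passed the test of the difference between days (edgeR), with 1014 genes (6.81%) at an unadjusted p under 0.05. The smaller number of calls at LP day 28 is thus not shown to be a smaller set of differences. The count at LP day 7 fell to 31, 35, and 38 without LP day 7 samples 2, 4, and 6. The count at LP day 28 fell to 2, 8, 10, and 11 without LP day 28 samples 1, 2, 5, and 6, whereas the count over both days stayed between 112 and 159 when any sample was left out.

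**Figure D4:**
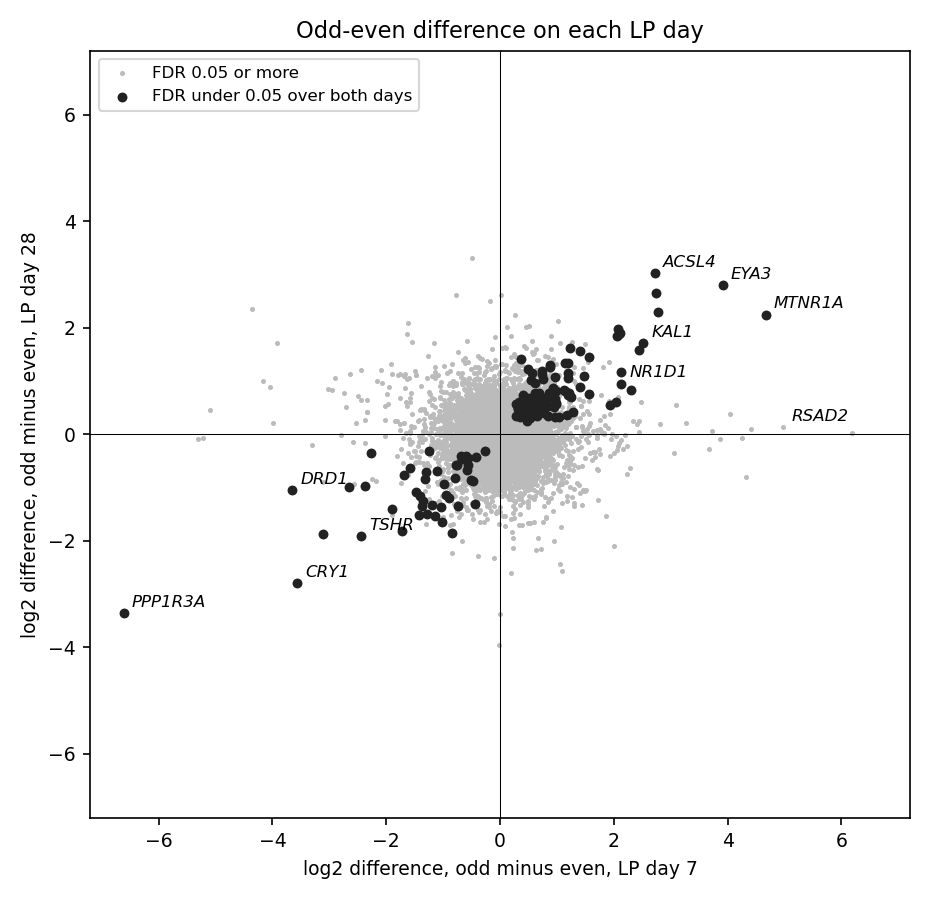
Log2 difference, odd minus even, at LP day 7 (horizontal) and at LP day 28 (vertical) for the 14890 tested genes, with the 152 genes at FDR under 0.05 over both days in black. The called genes lie in the upper right and lower left, DRD1 is nearer 0 at LP day 28 than at LP day 7, and the interferon-induced gene RSAD2 is far from 0 at LP day 7 alone.

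File headers give each sample a numbered directory, and these numbers do not repeat within samples 1 to 3 or within samples 4 to 6 of the series but do repeat between these sets. The former set has 2 odd samples and 1 even sample per LP day and the latter 1 odd and 2 even, so that number parity and set are partly mixed. With the set as a covariate, an alternative added after seeing the data, 181 genes (1.22%) were called, 139 of them among the 152, and all 152 kept their sign. CRY1 then differed by -3.33 (FDR 6.01e-09). The set itself had 90 called genes (0.604%), of which 2 were also called for odd against even. Within samples 1 to 3 alone, 9 genes were called, and within samples 4 to 6 alone, 45.

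The other 11 samples of the series, on SP and at LP day 1, did not divide by sample number in the same way. There, 0 of 14920 genes were called (edgeR), 766 (5.13%) had an unadjusted p under 0.05, and DESeq2 called 2. Of the 152 genes, 150 were tested in these samples and 104 (69.3%) had the same sign, against 54.9% of all genes tested in both, and 3 reached an unadjusted p under 0.05, 2 of them in the same direction. CRY1 was at 22.5, 22.8, and 406 CPM in SP samples 1, 3, and 5 and at 206 and 237 CPM in samples 2 and 4. At LP day 1 it was at 28.3, 261, and 209 CPM in samples 1, 3, and 5 and at 235, 282, and 34.5 CPM in samples 2, 4, and 6. Low values of CRY1 thus occurred in SP samples 1 and 3 and in LP day 1 samples 1 and 6, 3 odd and 1 even. MTNR1A had its highest levels of these time points in the same samples, at 17.2 and 19.9 CPM on SP and 12.3 and 13.2 CPM at LP day 1, against 4.01 CPM or less in the other 7. ACSL4 was also highest within each time point in these samples, at 146 and 105 CPM on SP against 75.5 to 88.7 CPM and at 175 and 159 CPM at LP day 1 against 77.9 to 117 CPM. EYA3 was highest in samples 1 and 6 of LP day 1, at 60.4 and 75.6 CPM against 20.4 to 53.7 CPM, whereas SP samples 1 and 3, at 37.1 and 28.3 CPM, overlapped the others, of which the highest was at 36.0 CPM. For EYA3 and ACSL4, all 11 samples were below the odd samples of LP days 7 and 28. On SP, DBP was highest in samples 1 and 3, at 153 and 157 CPM against 60.1 to 94.5 CPM. CIART was as well, at 10.6 and 13.3 CPM against 4.54 to 6.09 CPM. At LP day 1, DBP was instead lowest in samples 1 and 6, at 76.1 and 75.6 CPM against 100 to 125 CPM. CIART overlapped at LP day 1, at 9.08 and 11.2 CPM in samples 1 and 6 against 6.56 to 12.4 CPM. The comparison of these genes was made after their values had been seen.

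The odd-even difference at LP days 7 and 28 exceeded that on SP and LP day 1 for 5 of 15653 genes (0.0319%, interaction test, edgeR), and 957 (6.11%) reached an unadjusted p under 0.05. ACSL4 changed by 2.78 (standard error 0.32, FDR 4.88e-05), from 0.10 to 2.88 on the log2 scale. EYA3 changed by 3.63 (standard error 0.48, FDR 3.83e-04). The chemokine gene CXCL16, at 117 to 232 CPM in odd and 70.0 to 81.5 CPM in even samples of LP days 7 and 28, changed by 1.13 (FDR 0.0225). PDE3A, another phosphodiesterase, changed by 2.20 (FDR 0.0225), and the fifth gene had no symbol. CRY1, with a change of -2.90 (standard error 0.80, FDR 0.365), TSHR (-2.12, FDR 0.327), and MTNR1A (2.04, FDR 0.803) did not pass. The count of 5 fell to 2 without LP day 1 sample 3, and to the same number without LP day 1 sample 6, LP day 7 sample 1, or LP day 28 samples 1 or 6. It fell to 3 without LP day 1 sample 5 or LP day 28 sample 2, and rose to 9 without SP sample 1. LP day 1 samples 3 and 4, of which sample 4 had 307952 counts, had the lowest mean chi-square per gene (1.14) of the pairs compared. The pairs were all within a time point, and the measure is lower for shallow samples. Paired with LP day 1 samples 1, 2, 5, and 6, sample 4 had 3.36, 7.15, 5.61, and 1.75. Whether samples 3 and 4 come from the same animal or library was not tested. Both were kept, as an odd and an even sample. Without sample 4 the count was still 5.

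For 16 of the 152 genes, all 6 odd samples of LP days 7 and 28 were above all other 17 samples of the series, as for EYA3, ACSL4, KAL1, CIART, ELOVL6, ATP8B1, CXCL16, and PDE3A. Over all tested genes this was found for 16 (0.107%), so each of them was among the called genes. The even samples were above the other 17 for 3 called genes, among them NRIP3 and LXN, and below them for SYT5, where 0.0336% and 0.0134% of all tested genes were. For EYA3 and ACSL4, the even samples of LP days 7 and 28, at 30.9 to 58.5 CPM and 78.2 to 171 CPM, lay within the range of SP and LP day 1 samples.

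**Figure D5:**
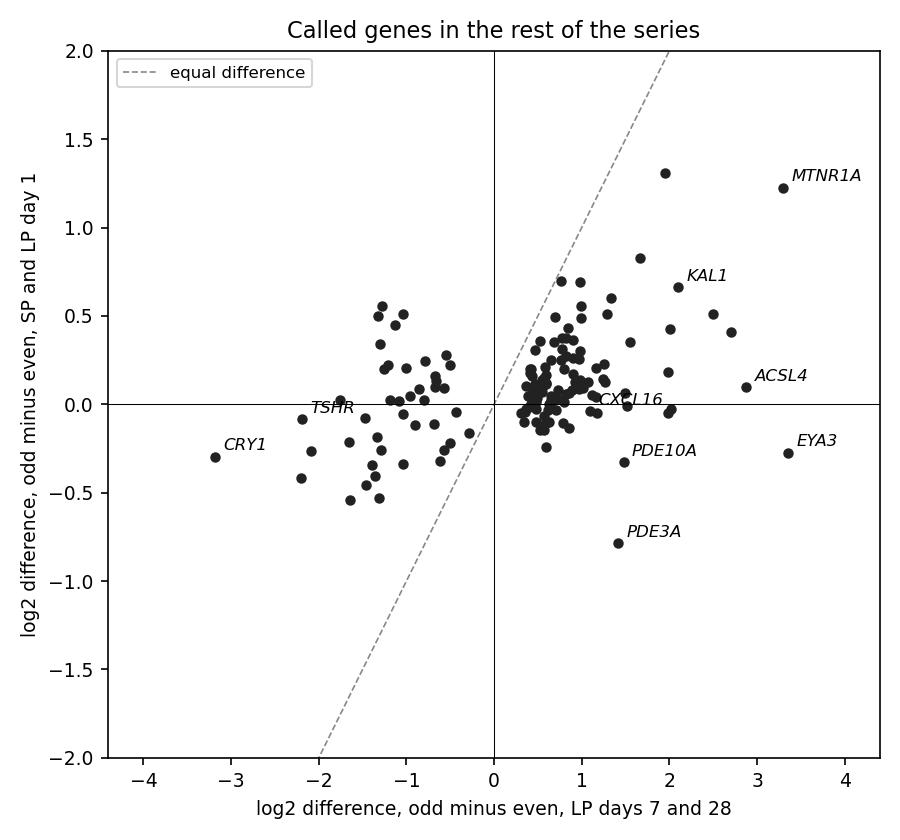
Log2 difference, odd minus even, at LP days 7 and 28 (horizontal) and on SP and LP day 1 (vertical, a shorter scale) for the 150 called genes tested in both, with a dashed line where the differences would be equal. EYA3 and ACSL4 lie near 0 on the vertical axis and far from 0 on the horizontal axis, and the highest called gene on the vertical axis, which has no symbol, is at 1.31.

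Sample parity also bears on the comparison of the LP days. With parity in the model, 10 of 14890 genes (0.0672%) differed between LP day 28 and LP day 7, 7 higher (0.0470%) and 3 lower (0.0201%) at LP day 28, whereas 1 gene (0.00672%) was called without it. With parity, 7.54% of genes had an unadjusted p under 0.05. That gene was DCT, a melanin synthesis enzyme, which fell by 1.67 on the log2 scale (FDR 2.88e-05 with parity, 0.00160 without). SHH fell by 1.02 (FDR 0.0355 with parity, 0.0632 without), and VMO1, a vitelline membrane protein homologue, rose by 1.72 (FDR 0.0355 and 0.0632). None of the 10 genes was among the 152 odd-even calls. Their number moved between 1, without LP day 7 samples 5 or 6 or LP day 28 samples 1 or 6, and 17, without LP day 28 sample 4. It was also lower without LP day 7 sample 1 (4 genes), 3 (6), or 4 (3) and without LP day 28 samples 3 or 5 (2 each).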

How the data were processed

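RNA of sheep PT was sequenced in 23 samples, of which the 12 of LP days 7 and 28 make the main comparison. Per-gene read counts, by Ensembl identifier, were deposited for each sample. Their processing notes name Bowtie, HTSeq, and the genome build Oar_v3.1, whereas the file headers have the form written by featureCounts for TopHat alignments, so the counting program and its use of strand were not settled. Overlapping or near-identical genes may share reads.

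The test was that of edgeR 4.0.16 under R 4.3.3. Samples were TMM normalized, genes that exceeded 1 CPM in 6 or more samples were kept (5 where SP and LP day 1 samples were compared or added), and the quasi-likelihood test was applied with parity (odd or even sample number) and LP day in the model, at a Benjamini-Hochberg FDR under 0.05. Standard errors are the absolute log2 difference divided by the square root of F, and 95% intervals use 9 residual degrees of freedom. Differences within each day and between days came from a model with each group as a term. SP and LP day 1 samples were fitted with time point as the covariate, and all 23 samples for the difference between periods. Sample measures were compared by exact permutation within day. The reads carry no molecular identifiers and are therefore not independent molecules, and 3 counts, the lowest level taken as detectable, stood at 0.68 to 1.37 CPM in the 12 samples, for counting error only. On simulated data with 200 changed genes of 14739, the odd-even test recovered 94% (84% of those changed by 1 on the log2 scale), and 7.39% of its calls were unchanged genes. The changes were of 1, 1.5, 2, or 3 on the log2 scale in genes above 3 CPM. The spread was taken from these data, without a day effect. Recovery of smaller differences, such as the median of 0.82 among the calls, was therefore not measured.

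The members and gene lists were chosen with earlier results of these data known. Genes named are all tested clock components, up to 4 genes with the lowest FDR of every other list, up to 10 per direction with the largest difference among called, non-overlapping genes with a symbol, and up to 10 called genes of the difference between days or periods and 5 per direction of the day comparison. Others are said to be named after their values were seen, and some genes that this rule names are not reported here. Symbols for 1259 genes came from the study's supplementary tables, in which 29 symbols have more than 1 identifier. Alternatives were DESeq2 1.42.0, limma 3.58.1 with voom, upper quartile and RLE scaling, other filters, robust estimation, and no day term. Further ones were the log2 CPM of prolactin as a covariate, all samples in a single fit, and a stricter FDR. The sample number was also used as a block, and each sample was left out. The sets of samples 1 to 3 and 4 to 6 were added after seeing the data. The columns of the authors' own comparisons in the supplementary tables were not used, and gene positions and sequences were not analysed here.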

Additional observations from a re-analysis of the deposited data

Results flagged for a closer look

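DRD1 differed in its odd-even difference between LP day 7 and LP day 28, by -2.61 on the log2 scale (edgeR, FDR 0.0228). The odd-even difference also changed between SP with LP day 1 and LP days 7 with 28 for EYA3 (3.63), ACSL4 (2.78), CXCL16 (1.13), and PDE3A (2.20), each by an edgeR interaction test. With each sample left out in turn, 0 to 2 genes passed the former test and 2 to 9 the latter. Single samples stood apart from the rest of their group for 2 named genes by Dixon's ratio. These were PPP1R3A, with 10.6 CPM in LP day 28 sample 2 against 3.22 to 5.05 CPM in the other even samples, and NRIP3, with 1.94 CPM in LP day 28 sample 5 against 5.31 to 7.25 CPM in the other odd samples. Chance alone flags about 1 in 20 groups, and 62 groups were examined.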

How the results depend on the processing

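The 152 calls over LP days 7 and 28 became 264 with DESeq2, 86 with all 23 samples in a single fit, 85 at FDR under 0.01, and 112 to 159 with each sample left out. Upper quartile or RLE scaling, edgeR's own filter, no filter, robust estimation, voom weights, no day term, and a prolactin covariate gave 149 to 207. Among alternatives chosen after seeing the data, 9 genes were called within samples 1 to 3 and 45 within samples 4 to 6, each with 6 samples. DESeq2 and no filter gave 171 and 219 at LP day 7, 81 and 61 at LP day 28, 13 and 22 for the difference between the days, 2 and 1 on SP and LP day 1, 16 and 12 for the difference against them, and 57 and 50 for LP day 7 against LP day 28, which had 1 call with parity left out. Leaving out each sample gave 31 to 92 at LP day 7, 2 to 29 at LP day 28, 0 to 2 for the difference between the days, 0 to 1 on SP and LP day 1, 2 to 9 for the difference against them, and 1 to 17 for the days. Of 917 alternative fits of the 34 called named genes, 865 kept the call, 52 lost it, and 0 changed sign. The causes were not tested. Depth limits genes near 3 counts, such as MTNR1A in even samples.

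Deviations from the mean of each day and parity group correlated between -0.10 and 0.13 for samples with the same number on LP days 7 and 28. Of 6 samples, 1 correlated best with its own number. As parity is removed with the group means, these values do not show what samples of the same number share. With the sample number as a random replicate block, 172 genes were called over both days, and with a fixed block, 6 were called between the days and 0 for the difference in parity between days.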
